A study of Mus musculus with 16 samples.

Results

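Triglyceride synthesis was followed at the level of 10 liver transcripts that encode its acyltransferases and lipins, which are Gpam, Gpat4, Agpat2, Agpat3, Lpin1, Lpin2, Mogat1, Mogat2, Dgat1 and Dgat2. They were taken by name, as array features that the platform annotation ties to exactly 1 gene, out of 18820 genes represented in this way. Each of the 10 genes had 1 such feature, and all 10 passed the filter on low values, an intensity above 20 (log2 4.32) on at least 5 arrays, as did 14275 genes in all. RNA of whole liver was measured in 16 male C57BL/6J mice, with 1 Affymetrix Mouse Gene 1.1 ST array for each mouse. Diets were started at 9 weeks of age and the livers were taken at 12 months.

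The mice fell into 8 groups of 2, given by diet and treatment. The diets were an intermittent regimen (INT), in which weeks of free access to a medium-fat diet took turns with weeks of 40% calorie restriction, continuous 30% calorie restriction (CR), the medium-fat diet itself with 25% of its energy from fat (MF), and a control diet (C). Wy mice had been gavaged 6 h before death with Wy-14,643, an agonist of the nuclear receptor PPARα, at 160 mg/kg, and mock mice with carboxymethyl cellulose alone. Every mouse, mock included, was fasted for 4 h before the gavage and from then until death, and INT mice were killed during a medium-fat week. In each of the 8 groups 1 mouse was of high and 1 of low body weight, so that 8 pairs of a Wy and a mock mouse were matched for diet and weight class. Body weights themselves were not analysed here, and the mice had been picked for the arrays from the extremes of weight within their diet.

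Hepatic triglyceride is built on glycerol-3-phosphate by stepwise addition of fatty acids. Glycerol-3-phosphate acyltransferases (GPAT) add the first acyl chain, 1-acylglycerol-3-phosphate acyltransferases (AGPAT) the next one to give phosphatidate, lipins remove the phosphate to give diacylglycerol, and diacylglycerol acyltransferases (DGAT) complete the molecule. Monoacylglycerol acyltransferases (MOGAT) reach diacylglycerol by another way, from monoacylglycerol, and are best known from the absorptive cells of the intestine. Lipin 1 is also known as a nuclear coactivator of PPARα and PGC-1α target genes.

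All values are log2 intensities and were not compared between genes, because each probe set has its own affinity. The median tested gene lay at 7.07 to 7.21 depending on the array, and even the most similar arrays were 0.202 apart (root-mean-square). Hepatocyte markers (8 of 9 listed were represented) were above the filter on all 16 arrays, with a mean level between 12.50 and 12.84, and markers of other tissues were mixed. Above it on 0 arrays were the adipocyte hormone Adipoq, the intestinal genes Cdx2 and Sis, the pancreatic genes Ctrb1 and Cel and the muscle genes Myh4, Mylpf and Myog. Plin1, Retn and Lipe of the adipocyte list, Fabp2, Cdx1, Lct and Apoa4 of the enterocyte list, Cpa1 of the pancreas list and Acta1, Ckm and Tnnt3 of the muscle list were above it on all 16. The labels give the INT pair of high body weight another array code than the other 14 arrays, so results on INT are also given without that pair where this ended a call. In whole liver, fewer cells of a type and less RNA per cell cannot be told apart. A gene was called when its limma p-value, adjusted by Benjamini-Hochberg over all 14275 genes, was under 0.05, and errors are standard errors (SE) of the fitted model unless stated otherwise.

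**Figure D1:**
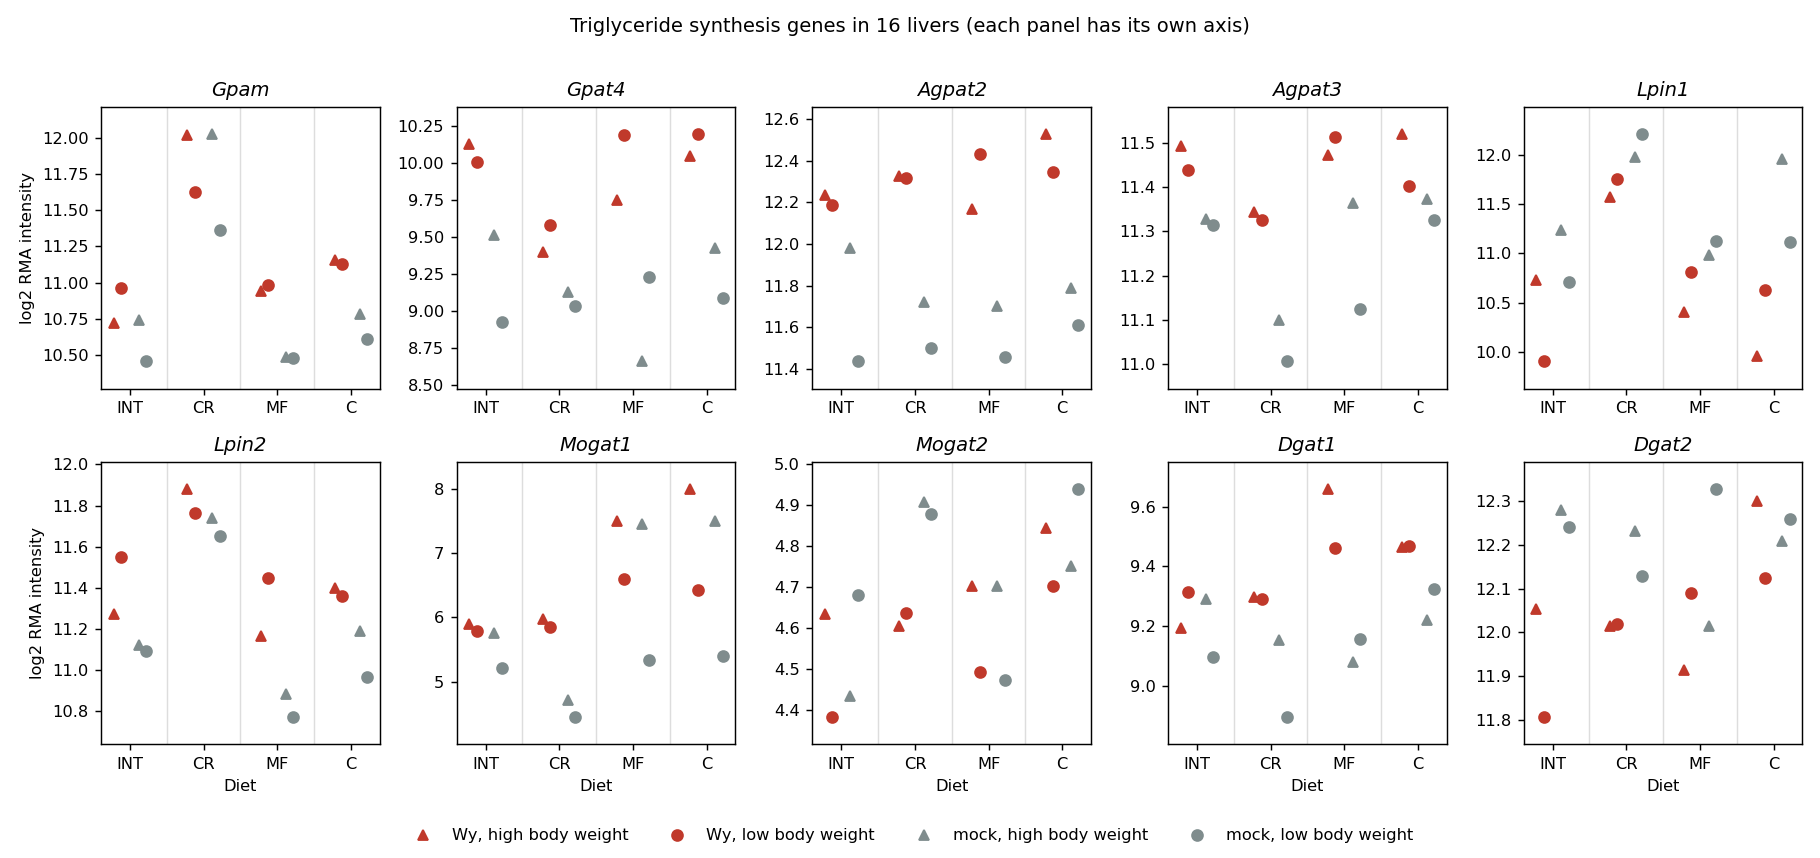
Log2 intensity (vertical axis, its own scale in each panel) of each of the 10 genes in the 16 livers by diet (horizontal axis), with 1 point per mouse, Wy in red left of mock in grey, triangles for high and circles for low body weight. Agpat2 separates Wy from mock livers completely, Gpam and Lpin2 are highest in CR, and Mogat1 is at 7.45 or above in the 4 heavy C and MF mice.

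The genes differed widely in how much they varied. Over the 16 livers the SD of the log2 level was 1.05 for Mogat1, 0.70 for Lpin1, 0.50 for Gpam, 0.49 for Gpat4, 0.38 for Agpat2 and 0.33 for Lpin2, and between 0.15 and 0.18 for Dgat1, Dgat2, Agpat3 and Mogat2. Mogat2, the isoform typical of the intestine, lay between 4.38 and 4.94 in all 16 livers, close to the filter at 4.32, and was called in none of the comparisons below. Dgat1 and Dgat2, the enzymes of the last step, kept to ranges of 0.76 and 0.52 over all diets, treatments and weight classes.

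Wy changed most of the pathway within 6 h. Of the 10 genes, 7 rose and 2 fell, so that 9 were called, against 28.3% of all tested genes (12.3% higher and 16% lower). The median change of the 10 genes was 0.27, beside -0.01 over all tested genes. Both GPATs, both AGPATs, Lpin2, Mogat1 and Dgat1 were higher, whereas Lpin1 and Dgat2 were lower, so that the lipins moved in opposite directions.

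At the first step, Gpat4, a GPAT of the endoplasmic reticulum, had a lowest, median and highest value of 9.40, 10.03 and 10.20 in Wy livers, against 8.66, 9.10 and 9.51 in mock livers. The groups overlapped only because of the high CR Wy mouse, whose 9.40 was below the 9.51 of the high INT mock mouse and the 9.42 of the high C mock mouse. Within matched pairs Gpat4 was higher in 8 of 8, by 0.27 to 1.11, and the fitted change was 0.79 ± 0.10 (1.73-fold, adjusted p = 0.000119). The smallest differences were those of the CR pairs, 0.27 in high and 0.54 in low body weight, but a dependence of the Wy effect on diet was not shown (F = 2.96, adjusted p = 0.997). Gpam, the GPAT of the outer mitochondrial membrane, ranged from 10.72 to 12.02 in Wy livers (median 11.06), against 10.46 to 12.02 in mock livers (median 10.68). It was higher in 6 of 8 pairs, with differences of -0.01 in the high CR pair and -0.03 in the high INT pair, and the fitted change was 0.32 ± 0.07 (adjusted p = 0.00644).

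At the second step, Agpat2, whose loss causes generalised lipodystrophy in mice and humans, was the one gene of the 10 whose groups did not overlap, which was the case with higher Wy values for 2.78% of all tested genes. It lay at 12.17 to 12.53 in Wy livers, against 11.44 to 11.98 in mock livers, and was higher in 8 of 8 pairs by 0.25 to 0.97. The fitted change was 0.67 ± 0.07 (1.59-fold, adjusted p = 5.71e-05). Agpat3 rose in 8 of 8 pairs too, but by 0.20 ± 0.05 (adjusted p = 0.00928).

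At the lipin step the pattern split. Lpin1 had a lowest, median and highest value of 9.90, 10.68 and 11.76 in Wy livers, against 10.71, 11.18 and 12.22 in mock livers. It was lower with Wy in 8 of 8 pairs and the fitted change was -0.70 ± 0.16 (1.62-fold lower, adjusted p = 0.00671). The groups overlapped, and the CR Wy mice at 11.57 and 11.76 were above 5 of the 8 mock mice. The low MF Wy (10.81) and high INT Wy (10.73) mice were also above the low INT mock mouse (10.71). The high C pair had by far the deepest drop, with 9.95 in the Wy mouse and 11.97 in the mock mouse, a difference of -2.01, while the other 7 pairs ranged from -0.81 to -0.32. Without either mouse of that pair the change was -0.51 (adjusted p = 0.000257). Lpin2 went the other way in 8 of 8 pairs, by 0.11 to 0.67, and its fitted change was 0.30 ± 0.07 (adjusted p = 0.00513). The difference between the responses of the lipins was not tested.

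Mogat1 lay between 5.79 and 7.99 in Wy livers (median 6.20), against 4.46 to 7.50 in mock livers (median 5.36). It was higher with Wy in 8 of 8 pairs and the fitted change was 0.78 ± 0.15 (1.71-fold, adjusted p = 0.00276). The size ran from 0.06 in the high MF pair and 0.15 in the high INT pair to 1.27 and 1.39 in the high and low CR pairs. The Wy effect on Mogat1 in heavy minus that in light mice was -0.58 ± 0.26, which did not pass the test (adjusted p = 0.999). For Agpat2 the same difference was -0.30 ± 0.12 (adjusted p = 0.999).

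At the last step both enzymes were measured. Dgat1, which is thought to handle mainly incoming fatty acids in the liver, was higher in 7 of 8 pairs, by 0.24 ± 0.07 in the fit (adjusted p = 0.0176). Dgat2, tied mainly to newly made fatty acids, was lower in 7 of 8 pairs and its fitted change was -0.17 ± 0.06 (adjusted p = 0.0393). This call did not hold when the arrays were centred on their medians (-0.14, adjusted p = 0.111) or without the INT pair of high body weight (-0.16, adjusted p = 0.0774). Mogat2 had a change of -0.10 ± 0.07 (adjusted p = 0.319).

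**Figure D2:**
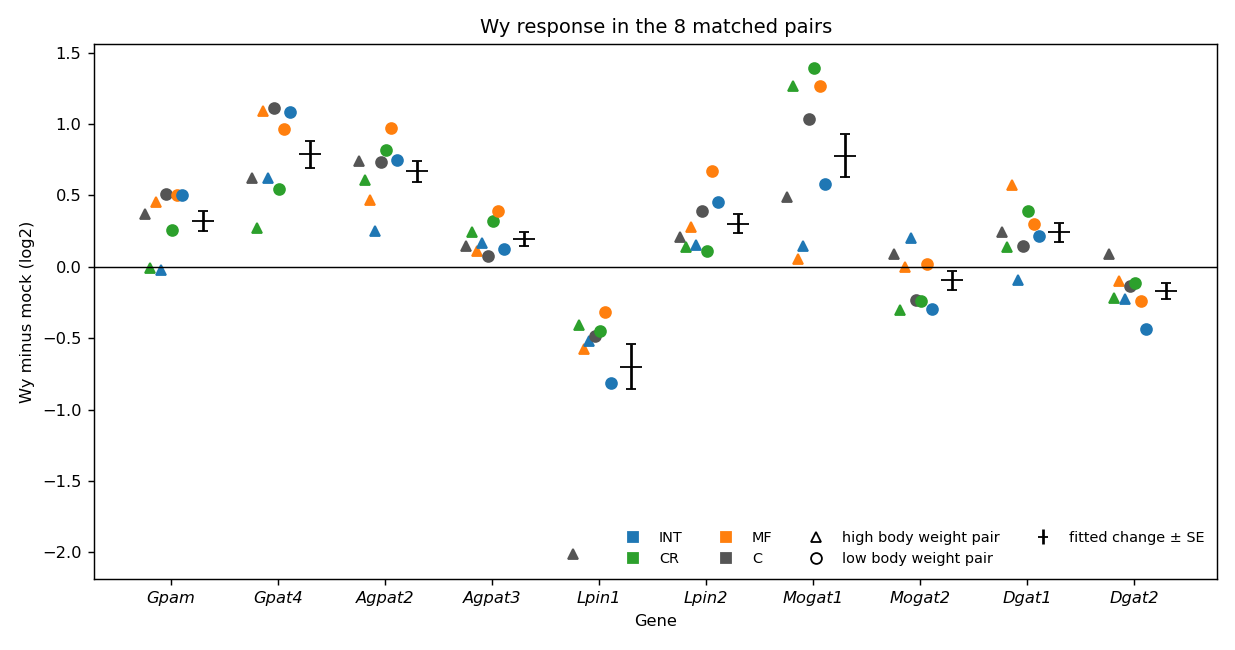
Wy minus mock difference in log2 intensity (vertical axis) for each gene (horizontal axis) in the 8 matched pairs, coloured by diet, with triangles for high and circles for low body weight, and the fitted change with its SE as a black bar. Gpat4, Agpat2, Agpat3, Lpin2 and Mogat1 lie above 0 in all 8 pairs and Lpin1 below 0 in all 8, with the high C pair at -2.01.

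Over all diets, and between body weight classes, limma called 0 of the 10 genes and 0 of all 14275 tested for a difference in the Wy effect (669 and 673 genes at an unadjusted p under 0.05). Of the single diets set against C, CR gave 1 called gene among all tested, which was none of the 10, and MF and INT gave 0 (479, 363 and 629 at an unadjusted p under 0.05). These interactions rest on 4 and 6 residual degrees of freedom, and a p that misses the threshold does not show that the response was alike in all diets.

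Genes that surround the pathway were read against the same 28.3% of all tested genes called with Wy. Of 9 tested enzymes of the same families, 3 rose and 0 fell, led by Gpat3, another GPAT of the endoplasmic reticulum (2.01 ± 0.18, 4.04-fold, adjusted p = 1.76e-05), and followed by Lclat1 (0.31) and Lpgat1 (0.31), which acylate lysophospholipids. The median of these 9 was -0.01, and their share of calls was near that of all genes. All 5 tested genes of the transport and turnover of glycerol and glycerol-3-phosphate were called, 3 of them higher. These were Gpd2 and Gpd1, the mitochondrial and cytosolic glycerol-3-phosphate dehydrogenases (1.23 ± 0.10 and 0.52 ± 0.06), and the glycerol channel Aqp3 (0.63 ± 0.09), whereas Aqp9, the main glycerol channel of hepatocytes, fell by 0.38. Of 14 tested genes that lead from phosphatidate or diacylglycerol to phospholipids, 5 rose and 1 fell. The largest rises among them belonged to the cardiolipin branch, with Crls1 at 0.45 and Pgs1 at 0.34, while Etnk1 rose by 0.32 and Cds2, a CDP-diacylglycerol synthase, fell by 0.19.

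Among 10 tested phosphatidate phosphatases and diacylglycerol kinases outside the lipin family 3 were called, again a share near that of all genes. Dgkh, a diacylglycerol kinase, rose (1.46 ± 0.12, adjusted p = 1.01e-05) and Plpp2 and Dgkq fell by 0.47 and 0.20. Of the 4 partners of lipins and lipid droplet assembly, Bscl2, which encodes seipin, rose by 0.19 and Cnep1r1, a subunit of the phosphatase that acts on lipins, fell by 0.25. Of 8 tested transcriptional regulators, 0 rose and 4 fell with Wy. They were Ppargc1a, which encodes PGC-1α (-0.99 ± 0.07, adjusted p = 4.77e-06), Pparg (-0.62), Cebpa (-0.43) and the glucocorticoid receptor Nr3c1 (-0.33).

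Markers of cell types were set beside the Wy result and read against the 28.3% of all tested genes called. The shares called of enterocyte, endothelial and hepatocyte markers were below it. Of 4 tested adipocyte markers, 3 rose with Wy (Aqp7 by 1.45, Lipe by 0.63 and Plin1 by 0.16), and the mean level of the 6 represented adipocyte markers was 5.17 to 5.86 in Wy livers, against 4.90 to 5.41 in mock livers. The adipocyte hormones Adipoq and Lep were above the filter on 0 and 2 of the 16 arrays. Of 5 tested enterocyte markers 1 rose, Fabp2 (0.34 ± 0.09, adjusted p = 0.0187), and the mean level of the 8 represented was 5.94 to 6.33 in Wy livers, against 5.84 to 6.19 in mock livers, with Cdx2 and Sis above the filter on 0 arrays. Of 7 endothelial markers 1 fell, Tek by 0.18, and the mean level was 8.98 to 9.25 in Wy livers, against 9.03 to 9.38 in mock livers. Of the hepatocyte markers 2 of 8 fell, Cps1 by 0.32 and Tat by 0.39. Of the tested macrophage, stellate cell, lymphocyte, cholangiocyte, muscle and pancreas markers 0 were called in limma, with 4 in all at an unadjusted p under 0.05. The part of these shifts in the Wy result was not tested.

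Calorie restriction gave another pattern, in which Gpam and both lipins rose together. In CR against C, 3 of the 10 genes were higher and 2 lower, against 10.5% of all tested genes (4.54% higher and 5.98% lower). In CR against MF, 3 were higher and 1 lower, against 12.7% (5.79% and 6.87%). In INT against CR, 0 were higher and 3 lower, against 9.85% (5.57% and 4.28%). The same 4 CR livers enter all of these comparisons. The medians over the 10 genes were -0.11, 0.02 and -0.01 in the same order, and over all tested genes -0.01, -0.01 and 0.01.

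Gpam was at 10.72, 10.74, 10.96 and 10.46 in the 4 INT livers and at 12.02, 12.02, 11.63 and 11.37 in the 4 CR livers, in the order high Wy, high mock, low Wy, low mock. In the same order it was at 10.94, 10.49, 10.98 and 10.48 in MF livers and at 11.15, 10.79, 11.13 and 10.61 in C livers. Every CR value was above every value of the other diets. The fitted differences were 0.84 ± 0.12 for CR minus C (1.79-fold, adjusted p = 0.00114), 1.03 ± 0.12 for CR minus MF (2.05-fold, adjusted p = 0.000255) and -1.04 ± 0.12 for INT minus CR (2.05-fold lower in INT, adjusted p = 0.000225). Groups that did not overlap with higher CR values made up 5.7% of all tested genes against C and 5.08% against MF, and those with lower INT values 4.85% against CR. How many genes separate CR from all other diets at once was not counted.

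Lpin2 ranged from 11.10 to 11.55 in INT livers, against 11.88, 11.74, 11.76 and 11.65 in CR livers, in the same order of mice. MF livers ranged from 10.78 to 11.45 and C livers from 10.97 to 11.40, and none of the other diets reached a CR value. The shares of all tested genes with such separations are those given for Gpam. Lpin2 was higher in CR by 0.53 ± 0.09 against C (adjusted p = 0.00299) and by 0.69 ± 0.09 against MF (adjusted p = 0.000541), and the INT minus CR difference was -0.50 ± 0.09 (adjusted p = 0.00492). The last call was lost without the INT pair of high body weight (-0.41, adjusted p = 0.0991). Across the 16 livers the levels of Gpam and Lpin2 had a Pearson r of 0.91, the highest of any 2 of the 10 genes. The points share diets and treatments, so this describes the common pattern and is no test.

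Lpin1 was at 10.73, 11.24, 9.90 and 10.71 in INT livers, against 11.57, 11.98, 11.76 and 12.22 in CR livers, in the same order. MF livers had 10.40, 10.98, 10.81 and 11.12, so that INT and MF livers were all below the CR range. Such separations held for 4.85% (INT against CR) and 5.08% (CR against MF) of all tested genes. C livers had 9.95, 11.97, 10.63 and 11.11, and the high C mock mouse lay within the CR range. The fitted differences were -1.24 ± 0.25 for INT minus CR (2.36-fold lower in INT, adjusted p = 0.0073), 1.05 ± 0.25 for CR minus MF (2.08-fold, adjusted p = 0.0147) and 0.97 ± 0.25 for CR minus C (1.96-fold, adjusted p = 0.0247). The call against C was lost without the high C Wy mouse (0.71, adjusted p = 0.0748), and also without the low C Wy, low C mock, high CR Wy, low CR Wy or low CR mock mouse (0.86 to 1.01, adjusted p = 0.0525 to 0.0693). That against MF was lost without the high MF mock mouse (0.96, adjusted p = 0.0503).

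Mogat1 went the other way in CR. It was at 5.98, 4.72, 5.85 and 4.46 in CR livers, against 7.99, 7.50, 6.43 and 5.39 in C livers and 7.51, 7.45, 6.59 and 5.33 in MF livers, again in the order high Wy, high mock, low Wy, low mock. It was lower in CR than in C in 4 of 4 matched comparisons, with differences between -2.79 and -0.58, and the fitted change was -1.58 ± 0.34 (2.99-fold lower, adjusted p = 0.00935). The CR minus MF difference was -1.47 ± 0.34 (2.77-fold lower, adjusted p = 0.0127). The ranges overlapped in both cases, because the light C and MF mock mice lay within the CR range. Without a term for body weight class neither call held (adjusted p = 0.0564 and 0.0677). Mogat1 belongs to a set of lipid droplet genes that the study chose to plot in mice of the same experiment, so its direction is not independent evidence.

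Of the other genes only Agpat3 was called between diets. Agpat3 was lower in CR than in C (-0.21 ± 0.06, adjusted p = 0.0401). This call was lost when arrays were centred (-0.17, adjusted p = 0.0912) and on leaving out any 1 of 7 of the 8 CR and C mice (adjusted p = 0.0525 to 0.114). Its differences of 0.20 ± 0.06 for INT minus CR (adjusted p = 0.0526) and -0.17 ± 0.06 for CR minus MF (adjusted p = 0.0753) were not called. Moderation with a robust trend called both (adjusted p = 0.027 and 0.0442), as did the fit without the low MF mock mouse (0.20 and -0.22). Gpat4 and Dgat1 were lower in CR than in C in 4 of 4 matched comparisons each. Their fitted differences were -0.40 ± 0.17 (adjusted p = 0.152) and -0.21 ± 0.09 (adjusted p = 0.146), and neither was called. For INT minus CR, Gpat4 had a difference of 0.36 ± 0.17 (adjusted p = 0.215). Agpat2, Dgat2 and Mogat2 had differences between -0.22 and 0.16 in these 3 comparisons, with none called.

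**Figure D3:**
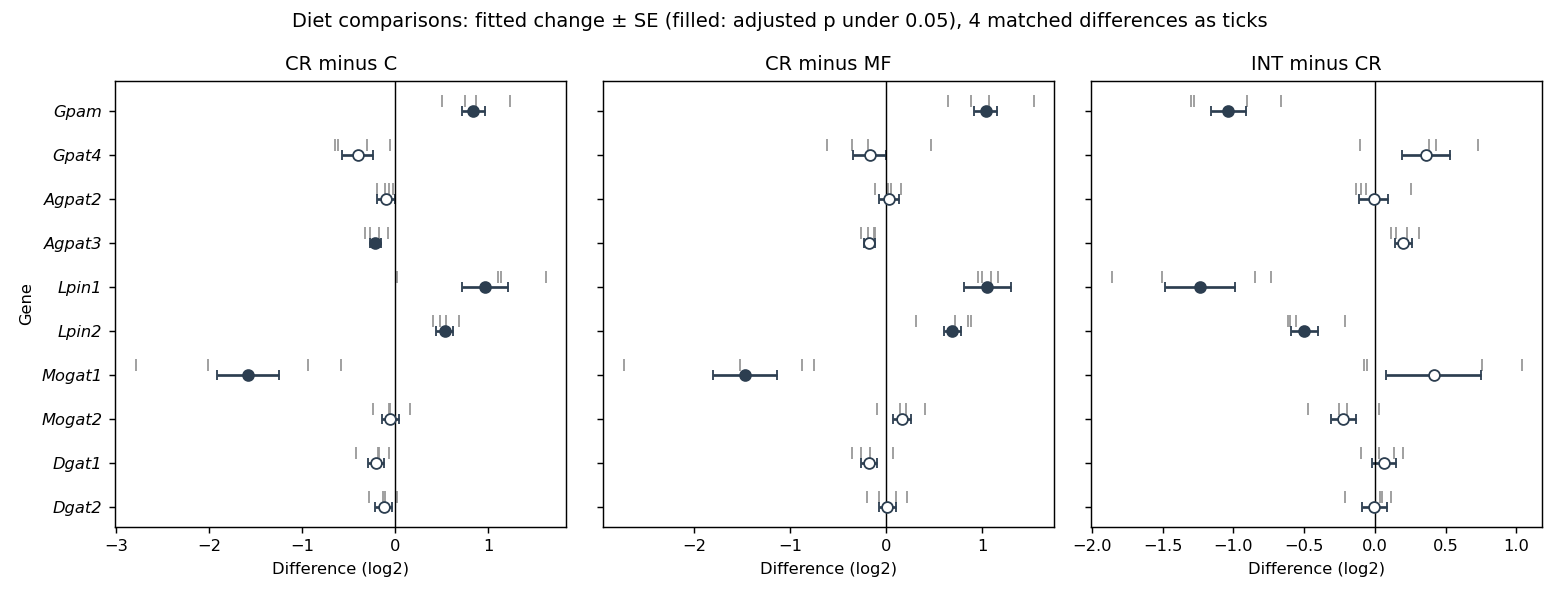
Fitted log2 differences with SE (horizontal axis) of the 10 genes (vertical axis) for CR minus C, CR minus MF and INT minus CR, with filled circles for adjusted p under 0.05 and the 4 matched differences as grey ticks. Gpam, Lpin1 and Lpin2 are higher in CR than in C and MF and lower in INT than in CR, and Mogat1 is lower in CR than in C and MF.

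INT livers, taken in the medium-fat week, were not told apart from C or MF livers for any of the 10 genes. For INT minus C, 0 genes were called of the 10 and 1 of all tested (0.00701%), and 1405 had an unadjusted p under 0.05. For INT minus MF and MF minus C, limma called 0 of all tested genes (0%), with 1629 and 628 at an unadjusted p under 0.05. The largest difference of the 10 was that of Mogat1, at 5.90, 5.75, 5.79 and 5.21 in INT livers, which was -1.17 ± 0.34 against C (adjusted p = 0.311) and -1.05 ± 0.34 against MF (adjusted p = 0.358). INT mice were close to one another and below the heavy C and MF mice, and 3 of the 4 lay within the range of the light ones. Mogat2 was at 4.38 to 4.68 in INT livers and 4.47 to 4.70 in MF livers, against 4.70 to 4.94 in C livers, with MF and C livers all but touching. Such a separation held for 1.51% and 0.56% of all tested genes, and the differences of -0.27 and -0.22 were not called (adjusted p = 0.375 and 1).

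Around the pathway, Ppargc1a was 1.44 ± 0.18 higher in CR than in C (adjusted p = 0.000422) and 1.95 ± 0.18 higher than in MF, and its INT minus CR difference was -1.71 ± 0.18. It was the only 1 of the 8 tested regulators called for CR minus C and for INT minus CR. For CR minus MF the carbohydrate response factor Mlxipl was called too (0.39). Of 9 tested paralogues 2 were lower in CR than in C, 1 lower in CR than in MF and 2 higher in INT than in CR. Of all tested genes 10.5%, 12.7% and 9.85% were called in these comparisons. Lpgat1 was lower in CR (-0.66 against C and -0.93 against MF), and higher in INT than in CR by 0.72. Of the 5 tested genes of glycerol and glycerol-3-phosphate transport and turnover, 1 was lower in CR than in C and 1 higher in INT than in CR. The phospholipid branch was mixed, with 3 of 14 tested genes higher in CR than in C, which were Cds2 (0.29), Pcyt2 (0.32) and Pemt (0.22), and Ptdss2 lower (-0.39). Among the phosphatidate phosphatases and diacylglycerol kinases Plpp3 and Dgka were lower in CR than in C (-0.47 and -0.44), and 0 of 10 were higher. The droplet assembly factor Ldaf1 was 0.52 higher.

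Markers of several cell types were set beside the CR result too, against 10.5% of all tested genes called for CR minus C. For the stellate cell and hepatocyte lists, with 1 call of 8 each, the share called was near this one. Enterocyte markers had a mean level of 5.84 to 6.17 in CR livers, against 6.19 to 6.32 in C livers, ranges that all but touched. Of 5 tested, 2 were lower, Fabp2 (-1.05) and Apoa4 (-0.60), with Cdx2 and Sis above the filter on 0 arrays. Adipocyte markers lay at 4.90 to 5.44 in CR livers, against 5.07 to 5.86 in C livers, with 1 of 4 lower (Lipe, -0.55). Stellate cell markers lay at 7.87 to 8.19 in CR livers, against 8.12 to 8.30 in C livers, with 1 of 8 lower (Col1a1, -0.42). Lymphocyte markers lay at 5.04 to 5.35 in CR livers, against 5.30 to 5.94 in C livers, with 1 of 6 lower (Cd79b, -0.77). The hepatocyte marker Tat was 0.65 higher, and 0 macrophage, endothelial, cholangiocyte, muscle or pancreas markers were called in limma for CR minus C, with 1 at an unadjusted p under 0.05.

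Against MF, CR livers had 2 of 5 enterocyte markers lower (Fabp2 and Apoa4), 1 of 4 adipocyte (Lipe), 2 of 8 stellate cell (Col1a1 and Hgf) and 1 of 6 lymphocyte markers (Cd79a). Of all tested genes 12.7% were called for CR minus MF and 9.85% for INT minus CR. The endothelial markers Lyve1 and Kdr differed by -1.32 and 0.47, and the hepatocyte markers Tat and Cps1 were higher. In INT against CR, Fabp2 (0.89), Lipe (0.46) and Cd79a (0.82) were higher and Cps1 (-0.26) and Tat lower. The part of these shifts in the diet results was not tested.

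Because Gpam, Lpin1 and Lpin2 moved together in CR, the sequences upstream of their transcription starts are shown, with letters in capitals where they match a searched motif. They are the 250 bases before a RefSeq start of the GRCm38.p6 assembly, written 5′ to 3′ on the strand of the gene. RefSeq windows were matched for 6 of the 10 genes, with 9 starts in all. The only Lpin1 window lies inside the gene, whose span reaches base 16653903 of chr12, so it is not at the gene's 5′ end.
Gpam, first start (chr19:55127239-55127488, - strand): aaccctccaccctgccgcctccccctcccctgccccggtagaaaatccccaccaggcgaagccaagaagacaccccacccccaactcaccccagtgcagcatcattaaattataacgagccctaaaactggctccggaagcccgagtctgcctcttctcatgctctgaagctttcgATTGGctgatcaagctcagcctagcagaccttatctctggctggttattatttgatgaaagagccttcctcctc
Lpin1 (chr12:16610967-16611216, - strand): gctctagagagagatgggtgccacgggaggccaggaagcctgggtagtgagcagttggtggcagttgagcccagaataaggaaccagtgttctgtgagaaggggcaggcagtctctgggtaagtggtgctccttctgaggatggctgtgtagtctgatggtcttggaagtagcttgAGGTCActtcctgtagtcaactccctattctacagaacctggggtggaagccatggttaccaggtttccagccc
Lpin2, first start (chr17:71183282-71183531, + strand): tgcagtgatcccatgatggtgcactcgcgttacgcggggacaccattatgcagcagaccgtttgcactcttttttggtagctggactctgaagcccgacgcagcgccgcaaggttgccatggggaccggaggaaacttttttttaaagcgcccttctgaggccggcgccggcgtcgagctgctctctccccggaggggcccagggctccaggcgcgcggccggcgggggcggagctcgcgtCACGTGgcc

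Motifs were searched on both strands in the 250-base windows. They were the nuclear receptor half-site AGGTCA, its direct repeat with 1 base between (DR1), which contains the half-site and is the form bound by PPARα with its partner RXR, the E-box CACGTG, a core of the sterol response element, TCACNCCAC, and the CCAAT box. The Lpin1 window holds AGGTCA at 69 to 74 bases before the start, a motif found in 14% of all 32851 windows. The Lpin2 window holds CACGTG at 4 to 9 bases before the start (6.02% of windows), and that of Gpam a CCAAT box on the opposite strand at 70 to 74 bases (33.8% of windows). Other starts of the same genes gave other matches. The other Gpam start holds AGGTCA at 191 to 196 bases before it, as Lpin1 does nearer to its start, and the third Lpin2 start holds CCAAT boxes on the opposite strand, the nearest at 53 to 57 bases, as the first Gpam start does. The direct repeat, present in 0.0335% of windows, and the sterol core, present in 1.05%, were in none of the 9 windows. Which motifs the 3 genes share therefore depends on the start taken, and a match of letters is a description and no binding site.

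Body weight class gave a call for 1 of the 10 genes. Within C and MF, Mogat1 was higher in heavy than in light mice by 1.68 ± 0.22 (3.20-fold, adjusted p = 0.00269). It was the 1 gene of the 10 that was called, against 7.39% of all tested genes (4.67% higher and 2.72% lower). The heavy C and MF mice were at 7.99, 7.50, 7.51 and 7.45, against 6.43, 5.39, 6.59 and 5.33 in light mice of the same diets and treatments. All heavy mice were above all light mice, and the differences were 1.57 in C Wy, 2.11 in C mock, 0.91 in MF Wy and 2.12 in MF mock. The share of all tested genes that separate in this way was not counted, and 7.39% is the share called. The study reported a positive correlation of Mogat1 expression with body weight in mice of the same experiment, so this direction is not independent evidence. Within CR and INT the differences were 0.14 in CR Wy, 0.26 in CR mock, 0.11 in INT Wy and 0.54 in INT mock, and the fitted value of 0.26 ± 0.22 was not called (adjusted p = 0.973). In those diets 0 of all tested genes were called by limma, with 679 at an unadjusted p under 0.05. The difference between both weight effects was 1.41 ± 0.31 (adjusted p = 0.0607), just above the threshold, while 0.855% of all tested genes were called for it (0.757% higher).

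By diet and weight class the mean Mogat1 level fell in the order heavy C (7.75), heavy MF (7.48), light MF (5.96), light C (5.91), heavy INT (5.83), light INT (5.50), heavy CR (5.35) and light CR (5.15), with 2 mice in each. The ranges of the 2 highest overlapped with each other and with none of the remaining 6, whereas each of those 6 overlapped with its neighbour in the order. How many of all tested genes have such a pattern was not counted. Over all 4 diets the weight difference of Mogat1 was 0.97 ± 0.24, with heavy mice higher in 8 of 8 comparisons, and did not pass (adjusted p = 0.156). In that comparison 0 of all tested genes were called by limma (0%), with 2000 at an unadjusted p under 0.05.

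**Figure D4:**
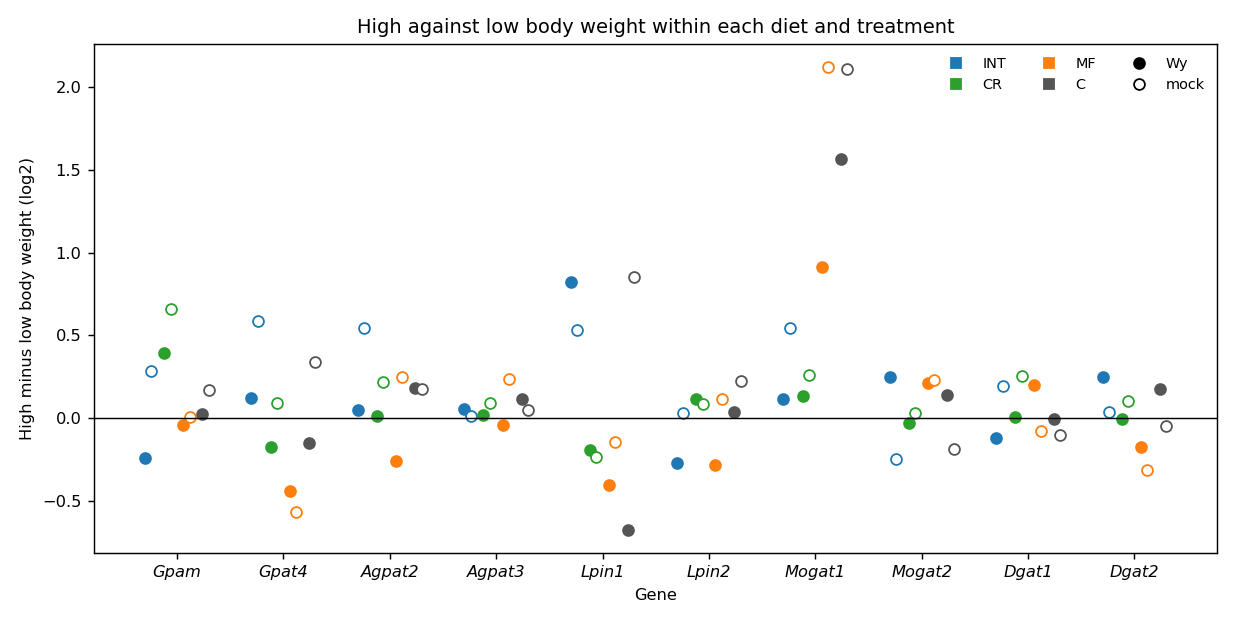
High minus low body weight difference in log2 intensity (vertical axis) for each gene (horizontal axis), within each diet (colours) and treatment (filled for Wy, open for mock). Mogat1 differences in C and MF lie between 0.91 and 2.12 and those in CR and INT between 0.11 and 0.54. Each of the other genes has differences of both signs, with Agpat2 and Agpat3 higher in 7 of 8.

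The genes whose levels were most like those of Mogat1 over the 16 arrays, by Pearson correlation, were Capns1 (0.952), Slc35f2 (0.945), Ermp1 (0.918), Bsg (0.915) and Trpm4 (0.915). Among the 10 genes the highest value with Mogat1 was that of Agpat3 (0.738). These are descriptions over livers that share diets and treatments. The 250 bases before the Mogat1 start, shown because this gene varied most, hold none of the searched motifs.
Mogat1 (chr1:78510810-78511059, + strand): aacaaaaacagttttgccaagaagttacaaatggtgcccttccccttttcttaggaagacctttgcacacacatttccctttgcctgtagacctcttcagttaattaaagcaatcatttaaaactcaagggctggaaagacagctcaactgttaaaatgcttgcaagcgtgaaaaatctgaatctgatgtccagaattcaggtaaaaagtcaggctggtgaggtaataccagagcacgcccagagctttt

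The other 9 genes were not called between weight classes in C and MF. Over all diets Agpat2 and Agpat3 were higher in heavy mice in 7 of 8 comparisons, with medians of 0.18 and 0.05, and were not called. Of the surrounding genes, Gpat3 (1.09 ± 0.26, adjusted p = 0.0299) and Pparg (1.03 ± 0.14, adjusted p = 0.00386) were higher and the dehydrogenase-like Gpd1l (-0.39 ± 0.10, adjusted p = 0.0411) was lower in heavy C and MF mice. Pparg, a regulator known to drive Mogat1 in fatty mouse liver, was also called for the difference between both weight effects (1.05 ± 0.20, adjusted p = 0.0428). With Wy, Pparg was lower and Mogat1 higher, and a link between them was not tested. Of the 14 phospholipid branch genes and the 10 other phosphatases and kinases, 0 were called in limma, with 3 and 1 at an unadjusted p under 0.05.

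Markers of cell types were set beside the weight result in the same mice, against 7.39% of all tested genes called. Hepatocyte markers had a mean level of 12.50 to 12.68 in heavy C and MF mice, against 12.63 to 12.73 in light ones, with 1 of 8 called lower. The mean level of the 8 stellate cell markers was 8.30 to 8.53 in heavy C and MF mice, against 8.11 to 8.25 in light ones, and 2 of 8 were called higher (Col1a1 by 0.55 and Col3a1 by 0.53). For the 8 macrophage markers it was 8.29 to 8.85 in heavy mice, against 8.26 to 8.52 in light mice, with Cd68 higher by 0.76 and Timd4 at -0.71. Lymphocyte markers lay at 5.59 to 5.94 in heavy mice, against 5.30 to 5.66 in light mice, with Ptprc higher by 0.70, and endothelial markers at 9.17 to 9.38, against 9.03 to 9.14, with 2 of 7 higher. Adipocyte markers lay at 5.40 to 5.86 in heavy mice and no higher than 5.47 in light ones, with 1 of 4 tested higher (Aqp7 by 2.03) and Adipoq above the filter on 0 arrays. The part of these shifts in the Mogat1 difference was not tested.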

How the data were processed

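The authors deposited log2 expression values of 16 arrays, made with robust multi-array averaging (RMA) per transcript cluster, which corrects background and equalises the arrays' distributions, so that a shift of the whole liver transcriptome would be removed. The RMA version and the genome build are not given in the sources used here. Of 35556 clusters, 21218 matched 1 gene, 1881 several and 12457 none in the platform annotation. The cluster with the highest mean was kept per gene (18820 genes). Genes above an intensity of 20 on at least 5 arrays (14275) were tested with limma 3.58.1 in R 4.3.3, with Benjamini-Hochberg adjustment within each of 16 comparisons. Groups came from the labels, which name separate mice.

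The matched pair entered the fit of Wy effects as a block (7 residual degrees of freedom), because mock and Wy mice had been paired by body weight within diet. As a check, correlations of paired deviations were 0.531 in C, 0.564 in MF, 0.0839 in INT and -0.169 in CR. Diets were compared with treatment and weight class as terms (10), and weight classes within diets in a diet by weight class model (7). The arrays' number limits the precision. All 10 members and up to 4 called genes per pathway list were named. The members and lists were chosen with earlier results of these data known. The fit was tested on simulated data. Alternatives covered centring, the filter, moderation, the block, the array code, treatment subsets and leaving out each array.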

Additional observations from a re-analysis of the deposited data

Results flagged for a closer look

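Of 80 sets of matched differences (the 10 genes in 8 comparisons), 3 held a value far from the rest by Dixon's criterion, which chance meets in about 1 of 20 sets. Lpin1 had a Wy minus mock difference of -2.01 in the C pair of high body weight, while the other 7 pairs lay between -0.81 and -0.32. Agpat2 had an INT minus CR difference of 0.26 in the mock mice of high body weight, against -0.13 to -0.07 in the other 3 comparisons, and the INT mouse concerned carries the other array code. Lpin2 had an INT minus CR difference of -0.21 in the Wy mice of low body weight, against -0.62 to -0.56 in the other 3. The causes were not tested.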

How the results depend on the processing

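Of the changes of single genes under the alternatives, 3586 kept their side of the threshold, 56 lost a call, 8 gained one and none of the called ones changed sign. Of the 10 genes, 3 were called for CR minus C without the weight class term, 2 in mock arrays alone and 0 in Wy arrays alone. For INT minus CR, 1 was called in Wy arrays alone, and for CR minus MF 2 in mock and 1 in Wy arrays alone. These subsets hold 2 mice per diet. For the difference of the weight effects, centring the arrays called 1 gene, Mogat1 (1.38, adjusted p = 0.0498).

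Leaving out 1 mouse at a time gave 8 to 9 genes for Wy, 3 to 5 for CR minus C, 3 to 4 for INT minus CR, 3 to 5 for CR minus MF, 1 to 2 for weight in C and MF (Lpin1 added without the high C mock mouse, -0.47, adjusted p = 0.0357), 0 to 1 for the difference of the weight effects (Mogat1 without the high CR Wy mouse, 1.55, or the high MF Wy mouse, 1.62) and 0 in the other comparisons. The Wy call of Dgat2 was lost in most of these (adjusted p = 0.0546 to 0.0946).

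Without the replicate block of matched pairs 8 genes were called for Wy, Dgat2 being lost (adjusted p = 0.0628). With the pair as a random block (consensus correlation 0.0741) the CR minus C call of Agpat3 was lost (adjusted p = 0.058). That block changed no other call, and could not be fitted beside diet by weight class terms, of which the pairs are made. Weight effects in CR and INT were not run without the INT pair of high body weight.

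Counts over all genes moved more. Main counts were 1501 for CR minus C, 1406 for INT minus CR and 1807 for CR minus MF, against 297, 490 and 238 in mock arrays and 160, 175 and 315 in Wy arrays, and without the INT pair of high body weight INT minus CR gave 378. Leave-one-out counts ran from 884 to 1601, 865 to 1459 and 1057 to 1975 in the same comparisons, from 182 to 1144 (main 1055) for weight in C and MF, and from 2 to 279 (main 122) for the difference of the weight effects. INT minus C gave 1 gene, 6 when centred, 5 with a robust trend and 1 to 16 in leave-one-out fits. Centring raised the share of higher calls to 53.9% from 43.5% for Wy, to 57.1% from 43.2% for CR minus C and to 56.2% from 45.7% for CR minus MF, and lowered it to 41.9% from 56.5% for INT minus CR.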
